A study of Mus musculus with 18 samples.

Results

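Bone of the skull roof was compared 4 days after an ischemic injury with the same bone of control mice, over all genes of a messenger RNA count table. The libraries were chosen by their labels alone, 3 from day 4 and 3 controls, 6 of the 18 libraries of a study that also sequenced brain cortex and skull at day 2. All groups were BALB/c mice, and the skull tissue was the interparietal bone, a flat plate at the back of the skull roof. The day 4 group carried an ischemic injury labelled as 4 days old, the day 2 group one of 2 days, and the controls are labelled only as controls for skull. Per the labels' protocols, the pieces taken held ischemic and peri-ischemic regions. The age and sex of the animals, the way the injury was made, what was done to the controls, the hour of collection, and whether a library stands for 1 animal or for a pool are unknown from the labels. The p-values below therefore measure the spread between these libraries, which may be technical.

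Flat skull bones enclose marrow between an outer and an inner plate, and blood cells form there as they do in long bones. Granulocyte precursors fill their granules with antimicrobial proteins in the marrow before they leave it as neutrophils, while monocytes leave it through the chemokine receptor CCR2. Fine channels through the inner plate join skull marrow to the meninges, a route along which marrow cells are known to reach the borders of an injured brain. The bone itself is laid down by osteoblasts, some of which become osteocytes enclosed in it, and is resorbed by osteoclasts.

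Genes that were higher at day 4 included genes of granulocyte precursors, neutrophils, monocytes and megakaryocytes, cell cycle genes, and genes of osteoblasts and collagens. Genes that were lower included genes of neurons, of the circadian clock and of heat shock proteins. None of 23 interferon-stimulated genes passed the test. Of 17450 genes tested with edgeR's quasi-likelihood test and Benjamini-Hochberg adjustment, 1853 (10.6%) passed an adjusted p of 0.05. Of these, 1018 (5.83% of all tested) were higher and 835 (4.79%) were lower at day 4. A change of at least 2-fold was found in 730 called genes (4.18%), 224 (1.28%) that rose and 506 (2.9%) that fell, and 148 genes (0.848%) passed an adjusted p of 0.01. The median log2 change over all genes tested was 0.02. All 3 day 4 libraries lay above all 3 controls in 2991 genes (17.1%) and below them in 2432 (13.9%). Of the 1853 called genes, 1844 had no overlap, so a lack of overlap adds little to a call.

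The number of calls rested on few libraries, above all the third control. Without it, 10 of 17825 genes tested (0.0561%) passed, and every count of called list members below falls to 0 without it, or to 1 where Ccr2, Nr1d2 or Sfrp2 is a member. Without day 4 library 2 or 3 the count was 590 or 237, and without control 1 or 2 it was 1270 or 2537. Of the 1853 genes, 1112 had an adjusted p under 0.1 without control 3, and those that did not pass had 0.0542 to 0.182. Control 3 had values between those of controls 1 and 2 in 66.8% of the 12720 genes that averaged 5 CPM (counts scaled to a common library size) or more (exact binomial 95% interval 66.0% to 67.7%). That interval takes genes as independent, which they are not, so it is too narrow. The shares at minimum means of 1 and 20 CPM, 64.3% and 69.0%, lay outside it. The other 8 skull libraries lay between the remaining libraries of their group in 13.6% to 36.0% of genes. Where controls 1 and 2 were at least 2-fold apart, control 3 lay between them in 99.7% of 947 genes. The same share was 2.95% to 72.6% for the other 8 libraries, each on its own set of such genes. Control 3 was best fitted as 64.8% control 1 and the rest control 2. Its median squared deviation from that mixture was 1.91 times that of counting error, against 4.22 to 6.35 times for the injured libraries about theirs. Controls 1 and 2 had 1.92 and 2.05 times. Their best fits gave the first of the other libraries a negative weight (-0.529 and -1.47), so that these were extrapolations and not mixtures. Because control 3 mostly lay between the other controls, leaving it out moves the control mean little, and a log2 change that is similar without it is no sign of stability. Whether it is a separate sample cannot be told from the labels, and the controls may hold in effect fewer than 3 samples.

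The 10 genes that passed without control 3 were named after their values were seen. Ccr2, the receptor that draws monocytes out of marrow, had the smallest adjusted p of all genes (chromosome 9, 124101950 to 124113557). It was counted at 35.5, 42.0 and 37.6 CPM in controls 1, 2 and 3 and at 106, 102 and 123 CPM in day 4 libraries 1, 2 and 3, a log2 change of 1.52 ± 0.10 (adjusted p = 0.000417; 1.51 and adjusted p = 0.0123 without control 3). The groups lay far apart, with the lowest day 4 library more than 2-fold above the highest control. The other rises were Tifab, an adaptor-binding protein of innate immune signalling (1.32 ± 0.13), Eln, which encodes elastin (1.06 ± 0.10), Ms4a7, a macrophage membrane protein (1.02 ± 0.10), and Steap4, a metalloreductase (0.82 ± 0.08). The falls were Rasl10b (-2.74 ± 0.26), the calcium sensor Cabp1 (-1.26 ± 0.12), the Wnt modulator Sfrp2 (-1.87 ± 0.19), the nuclear receptor Nr1d2 (-1.31 ± 0.11) and the microtubule kinase Dclk1 (-0.82 ± 0.08). Rasl10b stood at 23.7, 15.0 and 18.6 CPM in the controls and at 3.40, 2.14 and 2.96 CPM at day 4 (chromosome 11, 83409137 to 83421039). Eln stood at 144, 111 and 126 CPM in the controls and at 264, 275 and 257 CPM at day 4 (chromosome 5, 134702593 to 134747323). In none of these 10 genes did the libraries of the groups overlap.

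Total counts were 13398631 to 14765111 in the controls and 13142770 to 15445503 at day 4. Genes that define bone and marrow were present in every library: the summed level of 13 osteoblast genes was 46832 to 93386 CPM in the controls and 110087 to 158255 CPM at day 4, and that of 13 granule genes of granulocyte precursors was 689.7 to 1398 and 2442 to 4876 CPM. The scale of CPM is that of edgeR after TMM normalisation. The bone collagen genes Col1a1 and Col1a2 alone took 4.80% to 8.93% of control reads and 10.5% to 13.7% of reads at day 4, and globin genes took 1.51% to 2.13% and 0.564% to 0.820%.

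Transcripts of tissues that border the interparietal bone differed between libraries, also within groups. The sum of 12 neuron genes was 1279.6, 838 and 1109 CPM in the controls and 397, 284 and 333 CPM at day 4, and that of 4 genes of cerebellar granule cells 127, 56.8 and 94.9 CPM and 15.5, 13.9 and 21.4 CPM. Both sums were lower in each injured library than in each control. Genes of the pineal gland summed to 15.7, 3236 and 1198 CPM in the controls, so that control 1 nearly lacked them, and to 505, 460.0 and 521 CPM at day 4. Those of skeletal muscle summed to 4479, 896 and 3083 CPM and to 1746, 129.8 and 99.0 CPM. Choroid plexus and ependymal genes summed to 311, 399 and 330.4 CPM in the controls and to 3254, 1814 and 780.5 CPM at day 4, mostly through Ttr. The pineal and granule cell lists were added after these values were seen. In bulk tissue, fewer cells of a type and less RNA in each cell cannot be told apart. The part of the amount of bordering tissue in the results that follow was not tested.

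**Figure D1:**
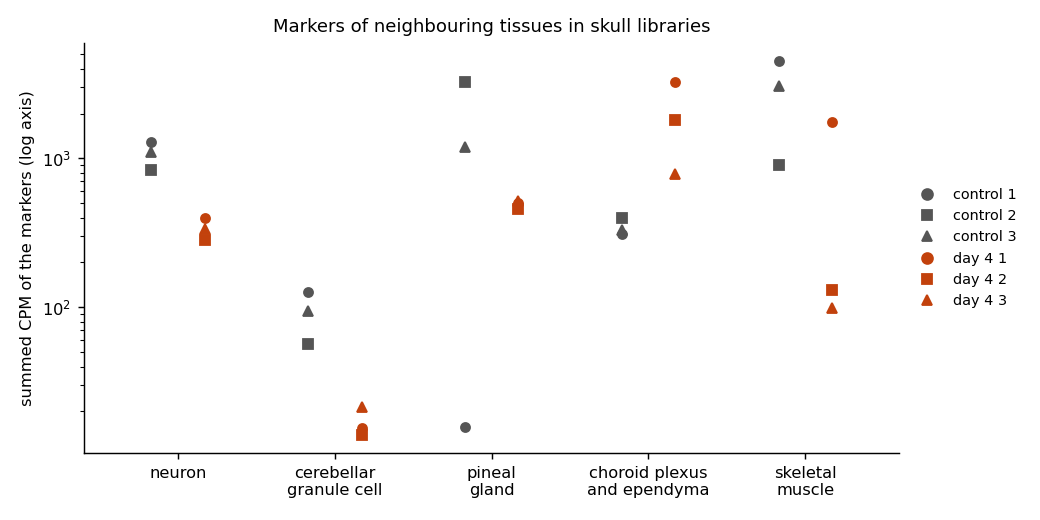
Summed level of marker genes of neighbouring tissues in each skull library, in CPM on a log axis, with controls in grey and day 4 in orange and a symbol for each library number. Neuron sums were 838 to 1279.6 CPM in the controls and 284 to 397 CPM at day 4, while pineal sums spanned 15.7 to 3236 CPM among the controls alone.

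The largest rises were led by choroid plexus, acute phase and granule genes. Ttr, the thyroid hormone carrier made by choroid plexus, went from 1.68, 5.74 and 3.48 CPM in the controls to 2559, 1368 and 367 CPM at day 4, a log2 change of 8.62 ± 1.98 (adjusted p = 0.0426). The injured libraries themselves differed several-fold, and library 3 held the least. Cldn2, a claudin of leaky epithelia that choroid plexus also makes, was counted at 1.48, 1.89 and 1.09 CPM and 18.5, 12.5 and 4.21 CPM, with the same order among the day 4 libraries (2.98 ± 0.58; chromosome X, 139800828 to 139811386). Of 12 choroid plexus and ependymal genes tested, 2 rose and 0 fell, beside 5.83% and 4.79% of all genes. The count was 0 without control 1, control 2 or day 4 library 2. Saa3, an acute phase protein, was counted at 0.134, 1.76 and 1.23 CPM and 4.81, 23.3 and 10.4 CPM (3.60 ± 0.78, adjusted p = 0.0323; chromosome 7, 46711998 to 46715700). Car12, a membrane carbonic anhydrase, was counted at 2.42, 2.84 and 3.00 CPM and 36.4, 37.1 and 16.9 CPM (3.45 ± 0.39, adjusted p = 0.00783; chromosome 9, 66713686 to 66766845). Neither gene had a control library that reached its lowest day 4 library, which was a condition for the leading genes. The others of the 14 leading rises were Itgb2l (2.23 ± 0.38), the phosphate regulator Phex (2.14 ± 0.27), Camp (2.10 ± 0.27), the short-chain fatty acid receptor Ffar2 (2.09 ± 0.47), Fcnb (2.08 ± 0.40), Chil3 (2.03 ± 0.26), Bpifb1 (1.97 ± 0.39), Serpinb10 (1.94 ± 0.40), Ngp (1.94 ± 0.30) and the neuropeptide galanin, Gal (1.89 ± 0.32). Without control 3 the 14 had adjusted p of 0.0542 to 0.145.

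Granulocyte precursors gave the highest list median of the blood-forming lineages. Of 13 tested genes of their granules and regulators, 10 rose, 0 fell and 3 did not pass, with a median log2 change of 1.73. All 13 lay higher in every day 4 library than in every control, against 17.1% of all genes. Camp, which encodes the antimicrobial peptide cathelicidin, stood at 64.3, 85.3 and 77.0 CPM in the controls and at 283, 223 and 468 CPM at day 4, a rise of 2.10 ± 0.27 (adjusted p = 0.0085; chromosome 9, 109847379 to 109849617). Ngp, a granule protein of the same family, stood at 262, 482 and 345 CPM and 1257, 969 and 1942 CPM (1.94 ± 0.30, adjusted p = 0.0133; chromosome 9, 110419747 to 110423012). Day 4 library 3 was the highest for both genes and control 1 the lowest for both. Chil3, a chitinase-like protein, stood at 21.7, 36.5 and 26.4 CPM and 116, 83.3 and 147 CPM (2.03 ± 0.26, adjusted p = 0.0085; chromosome 3, 106147554 to 106167564). Mpo, the myeloperoxidase of primary granules, stood at 38.3, 73.5 and 50.9 CPM and 164, 135 and 278 CPM (1.83 ± 0.32, adjusted p = 0.0175; chromosome 11, 87793581 to 87804413). The least day 4 value of Mpo was 135 CPM against 73.5 CPM in the highest control. Gfi1, a transcription factor needed for neutrophil formation, rose from 3.16 ± 0.853 to 11.0 ± 2.59 CPM (mean ± SD, n = 3 each; 1.80 ± 0.26). Cebpe, which drives the making of secondary granules, rose by 1.73 ± 0.39, and Ltf, the iron-binding lactoferrin of those granules, by 1.60 ± 0.34. The proteases Elane (1.62 ± 0.42, adjusted p = 0.0507) and Prtn3 (1.45 ± 0.46, 0.0884) and the siderophore-binding Lcn2 (1.28 ± 0.42, 0.0958) did not pass.

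Several genes of mature neutrophils rose too. Of 14 tested, 8 rose and 0 fell, with a median of 1.05. S100a8 and S100a9, the subunits of calprotectin, led them. S100a8 stood at 207, 403 and 286 CPM in the controls and 895, 754 and 1419.7 CPM at day 4 (1.78 ± 0.29, adjusted p = 0.014; chromosome 3, 90668978 to 90670035). S100a9 stood at 513, 873 and 693 CPM and 1972, 1604 and 2842 CPM (1.63 ± 0.24, adjusted p = 0.00924; chromosome 3, 90692632 to 90695721). Neither subunit had overlapping groups, and control 2 was the highest control for both. The collagenase Mmp8 rose by 1.46 ± 0.24, the lineage antigen Ly6g by 1.39 ± 0.33, Retnlg by 1.15 ± 0.28 and the G-CSF receptor Csf3r by 0.78 ± 0.17. Cxcr2, the receptor that draws mature neutrophils into blood, overlapped between the groups (14.1, 31.7 and 26.3 CPM against 28.9, 30.7 and 49.5 CPM; 0.60 ± 0.30, adjusted p = 0.244), as did Ccl6 (0.17 ± 0.24, 0.689). Without control 3 the called members of the precursor list had adjusted p of 0.0542 to 0.151 and a median of 1.69, and those of the neutrophil list 0.0584 to 0.137 and a median of 0.98. The count of precursor genes was 5 without day 4 library 3 and 6 without control 1, and that of neutrophil genes 3 without control 1 or day 4 library 3.

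**Figure D2:**
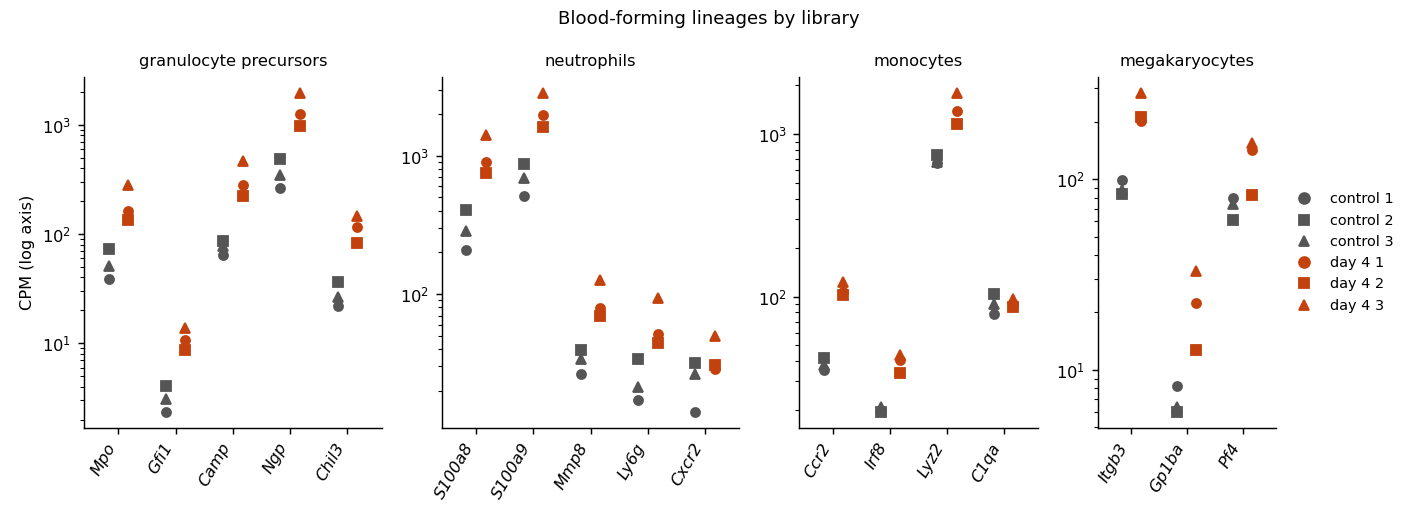
Level of selected genes of 4 blood-forming lineages in each library, in CPM on log axes, with controls in grey and day 4 in orange. Mpo lay at 38.3 to 73.5 CPM in the controls and 135 to 278 CPM at day 4, while the macrophage gene C1qa and the neutrophil receptor Cxcr2 overlapped between the groups.

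Of 15 tested genes of monocytes and macrophages, 6 rose and 0 fell, with a median of 0.52. Beside Ccr2, Irf8, the transcription factor that turns myeloid progenitors towards monocytes, stood at 19.7, 19.5 and 20.9 CPM in the controls and 40.6, 33.6 and 43.4 CPM at day 4 (0.97 ± 0.12, adjusted p = 0.00747; chromosome 8, 120736358 to 120756694). Lyz2, the lysozyme of myeloid cells, stood at 661, 744 and 672 CPM and 1400, 1157 and 1795 CPM (1.07 ± 0.19, adjusted p = 0.0156; chromosome 10, 117277331 to 117282321). Neither gene's groups overlapped, and the controls of each lay within a narrow band. Ly6c2, the surface antigen of inflammatory monocytes, rose by 1.55 ± 0.38, Ms4a6c by 0.75 ± 0.16 and the colony-stimulating factor receptor Csf1r by 0.52 ± 0.13. Those that did not pass included Mrc1, the mannose receptor (0.20 ± 0.10, adjusted p = 0.234), the complement subunit C1qa (0.01 ± 0.11, 0.967), the fractalkine receptor Cx3cr1 (0.15 ± 0.11, 0.433) and Adgre1, the F4/80 antigen (0.54 ± 0.16, 0.0628).

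Adhesion and trafficking genes of leukocytes rose in 8 of 14 tested, with 0 lower and a median of 0.70. Itgam, the integrin alpha chain of myeloid cells, stood at 24.3, 31.6 and 26.9 CPM in the controls and 62.3, 59.7 and 91.7 CPM at day 4 (1.37 ± 0.16, adjusted p = 0.00747; chromosome 7, 128062640 to 128118491). Its beta chain Itgb2 rose by 0.91 ± 0.20 and the lymphocyte integrin chain Itgal by 0.72 ± 0.18. Cxcr4, the receptor that holds blood cells in marrow, stood at 20.4, 14.1 and 20.5 CPM and 35.1, 27.7 and 47.9 CPM (1.01 ± 0.21, adjusted p = 0.0199; chromosome 1, 128588199 to 128592293). Its ligand Cxcl12, made by marrow stroma, stood at 376, 301 and 357 CPM and 542, 478 and 623 CPM (0.67 ± 0.11, adjusted p = 0.013; chromosome 6, 117168535 to 117181367). Receptor and ligand were thus both higher in each day 4 library than in each control. Vcam1, the adhesion molecule that stroma and endothelium offer to blood cells, rose by 0.49 ± 0.13, and the sphingosine phosphate receptor S1pr1 by 0.58 ± 0.12. Among 10 genes of the marrow niche, Cxcl12 and Vcam1 were the 2 that rose, beside 5.83% of all genes. Kitl (0.10 ± 0.13), Lepr (-0.05 ± 0.13) and Angpt1 (0.26 ± 0.17) did not pass. Without control 3, Ccr2 alone of the monocyte and trafficking lists passed, the others had adjusted p up to 0.138, and the medians were 0.47 and 0.67. The counts were, for monocyte genes, 2 without day 4 library 3 and, for trafficking genes, 3 without day 4 library 3 and 5 without control 1.

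Megakaryocyte and platelet genes rose in 7 of 13 tested, with 0 lower and a median of 1.19. Itgb3, the beta chain of the platelet fibrinogen receptor that osteoclasts also use, stood at 98.8, 84.0 and 87.3 CPM in the controls and 202, 211 and 283 CPM at day 4 (1.37 ± 0.15, adjusted p = 0.00655; chromosome 11, 104608000 to 104670476). Gp1ba, part of the receptor for von Willebrand factor, stood at 8.20, 6.01 and 6.35 CPM and 22.5, 12.8 and 32.8 CPM (1.73 ± 0.34, adjusted p = 0.0191; chromosome 11, 70639122 to 70642036). Library 2 was the lowest of the day 4 group for Gp1ba, though still above the controls. Clec1b (0.92 ± 0.22), Gp6 (1.19 ± 0.30), Treml1 (1.26 ± 0.32) and the platelet tubulin Tubb1 (1.20 ± 0.32) rose as well. The platelet chemokine Pf4 (0.82 ± 0.28, adjusted p = 0.0958), Ppbp (1.21 ± 0.33, 0.0573) and Vwf (-0.11 ± 0.19, 0.755), which endothelium also makes, did not pass. Without control 3 the 7 genes had adjusted p of 0.0542 to 0.138, and the median was 1.18. The count was 1 without day 4 library 3, 3 without control 1 or day 4 library 1, 4 without control 2 or day 2 library 2 and 11 without day 4 library 2.

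Among 12 genes of stem and progenitor cells, 3 rose and 1 fell, beside 5.83% and 4.79% of all genes. The count was 1 without day 4 library 3. Myb, a regulator of progenitor division, stood at 16.6, 9.86 and 11.9 CPM in the controls and 30.9, 26.7 and 48.6 CPM at day 4 (1.47 ± 0.25, adjusted p = 0.013; chromosome 10, 21124935 to 21160984). Sox4 rose by 0.80 ± 0.15. Hlf, a stem cell gene that is also a clock-controlled transcription factor, fell from 42.5 ± 1.85 to 16.3 ± 3.83 CPM (mean ± SD, n = 3 each; -1.38 ± 0.23, adjusted p = 0.0127). Kit, the stem cell factor receptor, overlapped between the groups (-0.15 ± 0.20, 0.685).

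Red cell, lymphocyte and antigen-presenting genes are given by their counts, beside 5.83% of all genes higher and 4.79% lower. Of 15 erythroid genes, Nfe2, which platelets' precursors also use, alone rose (1.29 ± 0.33, adjusted p = 0.0449), and the median was 0.15. The adult beta-globin Hbb-bs stood at 9734, 12694 and 10337 CPM in the controls and at 5473, 4117 and 5028 CPM at day 4, a lower level in each injured library that did not pass (-1.16 ± 0.53, adjusted p = 0.204); globin copies are nearly identical, so that reads may be split between them. Of 13 genes of B cell precursors, Sox4 alone rose, and Dntt did not pass (1.22 ± 0.54, 0.174). Of 13 genes of mature B and plasma cells, 3 fell and 2 rose (0 without day 4 library 2 or day 4 library 3 and 3 without day 4 library 1). Fcer2a, the low-affinity IgE receptor, fell from 7.70 ± 2.71 to 2.36 ± 0.344 CPM (mean ± SD, n = 3 each; -1.70 ± 0.34), Ms4a1, which encodes CD20, fell by 1.40 on the log2 scale (adjusted p = 0.03) and Ighd, the heavy chain of IgD, by 1.24 (adjusted p = 0.0259). The 2 that rose, Sdc1 (0.80 ± 0.16) and Prdm1 (0.84 ± 0.19), mark plasma cells but are also made outside the B lineage. Of 13 T and NK cell genes, Nkg7 alone rose (1.48 ± 0.37), and of 14 genes of dendritic cells and MHC class II, Clec9a alone (1.13 ± 0.26). Without control 3 none of these 5 lists or of the progenitor list held a call, with adjusted p of 0.0647 to 0.133 for those that had passed.

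Genes of DNA replication and mitosis rose in 15 of 25 tested, with 0 lower and a median of 0.82. Aurka, a kinase of the mitotic spindle, stood at 7.46, 10.7 and 8.54 CPM in the controls and 16.9, 15.7 and 20.7 CPM at day 4 (1.00 ± 0.16, adjusted p = 0.0107; chromosome 2, 172356190 to 172370535). Ccnb1, the cyclin that drives entry into mitosis, stood at 10.3, 15.2 and 10.4 CPM and 22.5, 23.1 and 28.1 CPM (1.03 ± 0.17, adjusted p = 0.0114; chromosome 13, 100778650 to 100786570). Its partner kinase Cdk1 rose by 0.92 ± 0.19, the cyclin Ccna2 by 0.83 ± 0.15, the spindle motor Kif11 by 1.01 ± 0.21 and the topoisomerase Top2a by 0.82 ± 0.17. Mki67, the proliferation antigen Ki-67, stood at 115, 143 and 125 CPM and 214, 174 and 284 CPM (0.81 ± 0.18, adjusted p = 0.0268; chromosome 7, 135689784 to 135716361). Every day 4 library lay above every control in 18 of the 25 genes, against 17.1% of all genes. Without control 3 the 15 had adjusted p of 0.0624 to 0.153, and the median was 0.78. The count was 1 without day 4 library 3 and 9 without control 1 or day 4 library 2.

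**Figure D3:**
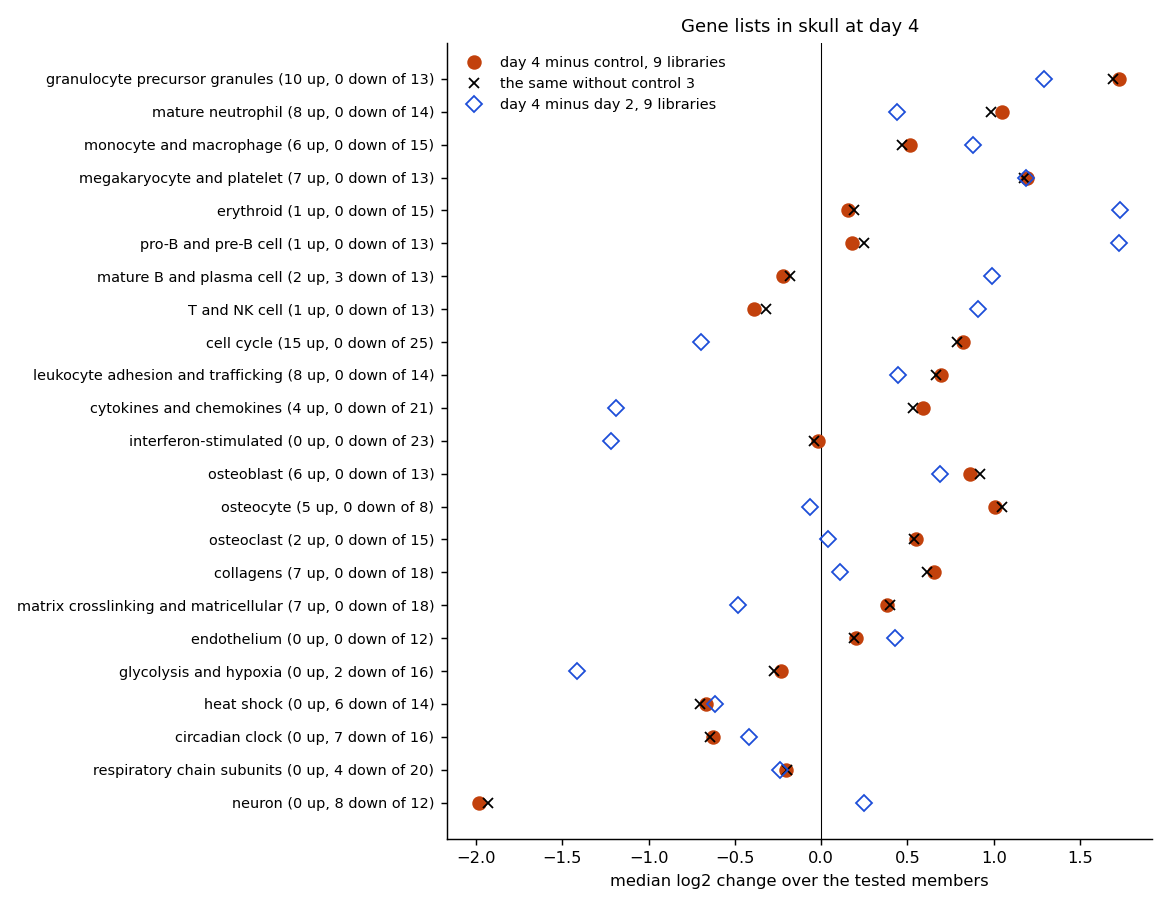
Median log2 change of the tested members of each gene list at day 4 against control (filled circles), the same without control 3 (crosses), and at day 4 against day 2 (open diamonds), with the number of members called against control in brackets. Circles and crosses nearly coincide, for example at 1.73 and 1.69 for granulocyte precursors, while cell cycle lay at 0.82 against control and at -0.70 against day 2.

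Several osteoblast genes were higher at day 4. Of 13 osteoblast genes, 6 rose and 0 fell, with a median of 0.86. Col1a1, the main chain of bone collagen, stood at 38388, 19876 and 31726 CPM in the controls and 46937, 69009.8 and 66444 CPM at day 4 (1.02 ± 0.25, adjusted p = 0.0318; chromosome 11, 94936224 to 94953042). Ibsp, the bone sialoprotein of mineralising matrix, stood at 615, 729 and 653 CPM and 1015, 3024 and 2072 CPM (1.61 ± 0.33, adjusted p = 0.0236; chromosome 5, 104299171 to 104311469). Day 4 library 1 was the lowest of its group for both genes, but above every control. Sp7, the transcription factor osterix that commits cells to the osteoblast fate, stood at 194, 154 and 181 CPM and 239, 367 and 350.2 CPM (0.85 ± 0.19, adjusted p = 0.0276; chromosome 15, 102356606 to 102367182). Spp1, which encodes osteopontin, rose by 0.86 ± 0.22 and Col22a1 by 1.06 ± 0.27. Runx2, the master regulator of the lineage (0.24 ± 0.12, adjusted p = 0.232), the phosphatase Alpl (0.49 ± 0.15, 0.0719) and the osteocalcin gene Bglap2 (0.73 ± 0.46, 0.351) did not pass. Bglap2 varied among the controls themselves, with 713, 175 and 519 CPM.

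Osteocyte genes rose in 5 of 8 tested, with 0 lower and a median of 1.01. Phex, an endopeptidase that limits the phosphate-wasting hormone FGF23, stood at 43.8, 21.0 and 31.1 CPM in the controls and 119, 171 and 133 CPM at day 4 (2.14 ± 0.27, adjusted p = 0.0085; chromosome X, 157162075 to 157415312). Dmp1, a mineral-binding matrix protein, stood at 66.6, 55.7 and 66.5 CPM and 120.4, 159.9 and 104 CPM (1.03 ± 0.15, adjusted p = 0.00881; chromosome 5, 104202613 to 104214102). Sost, which encodes the Wnt antagonist sclerostin, stood at 2.15, 3.17 and 1.84 CPM and 6.99, 8.41 and 8.11 CPM (1.71 ± 0.28, adjusted p = 0.0115; chromosome 11, 101962458 to 101967015). In none of these 3 genes did the groups overlap, and the day 4 libraries lay close together in Sost. Dkk1, another Wnt antagonist, rose by 1.37 ± 0.26 and the homeobox gene Irx5 by 0.99 ± 0.17. Tnfsf11, which encodes the osteoclast-inducing RANKL, overlapped between the groups (0.60 ± 0.33, 0.276).

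Beside 5.83% of all genes that rose, osteoclast genes rose in 2 of 15, with a median of 0.55. These were Itgb3 and the gelatinase Mmp9, counted at 295, 366 and 315 CPM in the controls and 452, 923 and 788 CPM at day 4 (1.15 ± 0.25, adjusted p = 0.0289; chromosome 2, 164940780 to 164955850), and both are also made by other marrow cells. The defining Acp5, which encodes the acid phosphatase TRAP, stood at 287, 274 and 288 CPM and 327, 673 and 565 CPM (0.88 ± 0.24, 0.0512). The bone-degrading protease Ctsk stood at 896, 840.4 and 844 CPM and 899.8, 1853 and 1489 CPM (0.72 ± 0.24, 0.0881). For both, day 4 libraries 2 and 3 lay well above the controls and library 1 close to them. Without control 3, none of the osteoblast, osteocyte and osteoclast genes passed; those that had were at adjusted p of 0.0542 to 0.133, and the medians were 0.92, 1.05 and 0.54. The count of osteoblast genes was 1 without day 4 library 3 and 2 without day 4 library 2, that of osteocyte genes 2 without day 4 library 3, and that of osteoclast genes 1 without control 1 or day 4 library 2 or day 4 library 3, 5 without control 2 and 10 without day 4 library 1.

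Collagens rose in 7 of 18 tested and fell in 0, with a median of 0.65. Col4a2, a chain of basement membranes, stood at 231, 259 and 241 CPM in the controls and 380.1, 463 and 428 CPM at day 4 (0.80 ± 0.09, adjusted p = 0.00668; chromosome 8, 11312805 to 11449287). Its partner Col4a1 rose by 0.76 ± 0.13, the fibril regulators Col11a1 by 1.41 ± 0.29 and Col5a2 by 0.74 ± 0.18, and the vessel-associated Col15a1 by 0.62 ± 0.13. Col1a2 (0.89 ± 0.26, adjusted p = 0.0546) and Col3a1 of soft connective tissue (0.06 ± 0.16, 0.848) did not pass. Of 18 genes that crosslink or bind the matrix, 7 rose and 0 fell, with a median of 0.38. Thbs1, the matricellular thrombospondin, stood at 335, 261 and 289.9 CPM and 519, 729 and 685 CPM (1.13 ± 0.14, adjusted p = 0.00763; chromosome 2, 118111876 to 118127133). Lox, which crosslinks collagen and elastin, stood at 522, 375 and 445 CPM and 675, 1130.3 and 817 CPM (0.97 ± 0.19, adjusted p = 0.0183). Both genes were highest in day 4 library 2. Fibronectin, Fn1, rose by 0.75 ± 0.15, Loxl1 by 0.40 ± 0.08 and the collagen hydroxylase Plod2 by 0.61 ± 0.14.

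Of 18 metalloproteinases and inhibitors, 4 rose and 1 fell, with a median of 0.39, beside 5.83% of all genes higher and 4.79% lower. Mmp13, the collagenase of bone remodelling, stood at 1016, 1326 and 1104 CPM in the controls and 2156, 3319.5 and 2085 CPM at day 4 (1.13 ± 0.22, adjusted p = 0.0182; chromosome 9, 7272514 to 7283331). Mmp8, Mmp9 and the aggrecanase Adamts4 (0.84 ± 0.20) rose, and the inhibitor Timp3 was the member that fell (-0.35 ± 0.10). In the cartilage and suture list, Col10a1 of hypertrophic cartilage rose and the Wnt target Axin2 fell, out of 14, beside the same shares. Col10a1 was at low levels, with 0.269, 0.0676 and 0.137 CPM in the controls and 1.99, 4.70 and 1.56 CPM at day 4 (4.04 ± 0.62, adjusted p = 0.00924). Without control 3 the called collagen, crosslinking and metalloproteinase genes had adjusted p of 0.0542 to 0.131 with medians of 0.61, 0.40 and 0.38, while the counts were, for collagens, 1 without day 4 library 3 and 2 without day 4 library 2, for crosslinking genes, 1 without day 4 library 3 and 3 without day 4 library 2, and for metalloproteinases and inhibitors, 2 without day 4 library 2 or day 4 library 3.

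**Figure D4:**
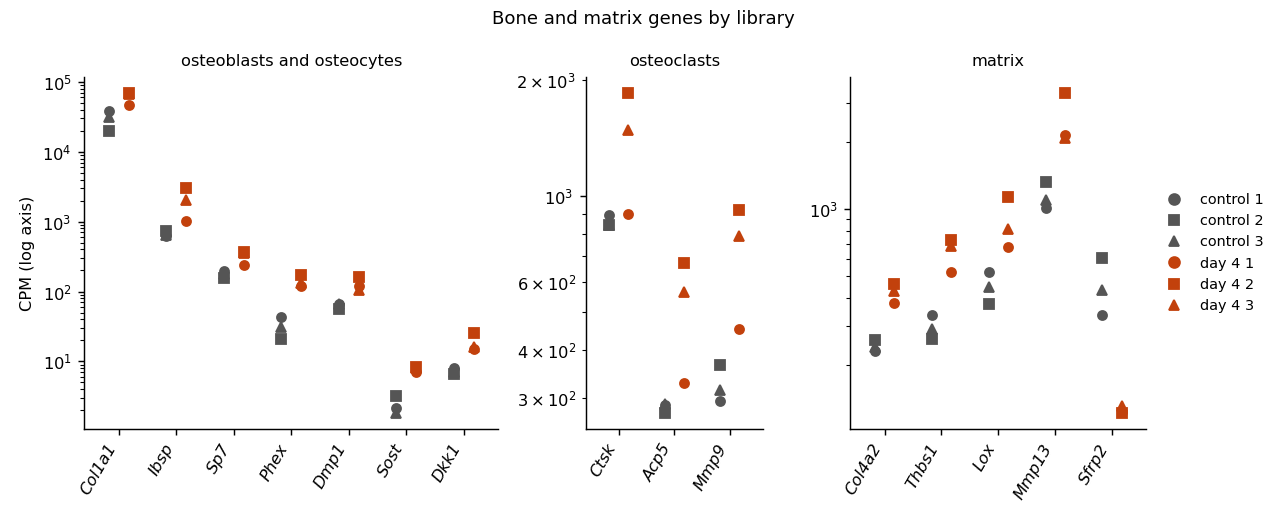
Level of selected bone and matrix genes in each library, in CPM on log axes, with controls in grey and day 4 in orange. Phex lay at 21.0 to 43.8 CPM in the controls and 119 to 171 CPM at day 4, Sfrp2 lay below the controls in every day 4 library, and Ctsk and Acp5 had day 4 library 1 close to the controls.

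Among Wnt pathway genes, antagonists were called in both directions. The counts in this paragraph stand beside 5.83% of all genes higher and 4.79% lower. Of 19 tested, 2 rose and 3 fell, with a median of -0.03, and the count was 1 without day 4 library 3 and 3 without day 4 library 2. Sfrp2, a secreted binder of Wnt ligands, stood at 336, 602 and 432 CPM in the controls and 123, 122 and 131 CPM at day 4 (-1.87 ± 0.19, adjusted p = 0.00638; chromosome 3, 83766321 to 83774316), and it passed without control 3 (-1.91, adjusted p = 0.0466). The day 4 libraries were nearly equal, and the lowest control was more than 2-fold above them. Wnt16, a ligand made by bone (-1.60 ± 0.34), and Axin2 (-0.65 ± 0.14), which feeds back on the pathway, fell too, while Sost and Dkk1 rose. Of 19 genes of the TGF-beta and BMP families, the ligand Tgfb1 rose by 0.76 ± 0.11 (adjusted p = 0.00909), from 88.9, 93.6 and 91.3 CPM to 132, 157 and 175 CPM, and its receptor Tgfbr2 by 0.36 ± 0.09; the other 17 did not pass. Of 16 angiogenic genes, the apelin receptor Aplnr rose from 17.5, 14.9 and 18.2 CPM to 41.8, 61.7 and 56.4 CPM (1.66 ± 0.19, adjusted p = 0.00702; chromosome 2, 85136225 to 85139923) and Pdgfb by 0.49 ± 0.12, while Vegfa (0.02 ± 0.15, 0.949) did not pass. Of 12 endothelial genes 0 passed in edgeR, where 3 had an unadjusted p under 0.05, while 1 passed in DESeq2 and 0 in limma voom. Called members other than Sfrp2 had adjusted p of 0.0542 to 0.135 without control 3.

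Several genes of cytokines and acute phase proteins were higher, where 5.83% of all genes rose. Of 21 cytokines and chemokines, 4 rose and 0 fell, with a median of 0.59: Tgfb1, Cxcl12, Il1rn, the natural antagonist of interleukin 1 (1.46 ± 0.33, adjusted p = 0.0275), and Cxcl5 (2.28 ± 0.53, 0.0308). Il1rn stood at 4.17 ± 0.726 CPM in the controls and 11.5 ± 4.80 CPM at day 4 (mean ± SD, n = 3 each), with no overlap. Il6, Ccl2 and Il1b did not pass (0.345, 0.88 and 0.934), and each was under 16 CPM in every control and day 4 library. Of 23 interferon-stimulated genes, 0 passed in edgeR, 0 had an unadjusted p under 0.05 and 0 passed in DESeq2 or limma voom, and the median was -0.02. Their sum was 416 to 508 CPM in the controls and 379 to 486 CPM at day 4. Of 6 acute phase and iron-binding genes, 4 rose (Saa3, Orm1, Ltf and Hp). Complement C3 rose by 1.47 ± 0.26 and the receptor C5ar1 by 0.82 ± 0.19, 2 of 14 complement genes. None of these calls held without control 3, with adjusted p of 0.0559 to 0.112. The count of cytokines and chemokines was 1 without day 4 library 3 and 2 without day 4 library 2, and that of acute phase genes 0 without day 4 library 3, 1 without control 1 and 2 without day 4 library 2.

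The deepest falls were in genes made mostly by neurons. The genes with the largest falls included Gpr26 (-6.60 ± 1.10), Grin2b (-5.64 ± 1.01), Ly6h, Mpped1, Kcnk9, Gad2, Calb1, Dpp10, Gabbr2, Hpcal4, Faim2, Vsnl1 and Synpr (-4.23 ± 0.96), and in all of them the brain controls of the study exceeded the skull controls by 4-fold or more. Gpr26, an orphan receptor of brain, stood at 23.3, 1.62 and 13.1 CPM in the controls and 0.192, 0.0824 and 0.0779 CPM at day 4 (chromosome 7, 131966460 to 131994405). Vsnl1, a neuronal calcium sensor, stood at 56.5, 3.85 and 36.7 CPM and 1.92, 1.81 and 1.32 CPM (-4.25 ± 0.90; chromosome 12, 11325242 to 11436613). The controls differed several-fold among themselves in both genes, with control 2 the lowest. Of 12 neuron markers, 8 fell and 0 rose, with a median of -1.98, among them the glutamate transporter Slc17a7 (-3.29 ± 0.42, adjusted p = 0.0085), Snap25 (-2.31 ± 0.45) and Syt1 (-2.65 ± 0.56) of synaptic vesicle release. Slc17a7 stood at 63.0, 22.1 and 55.5 CPM and 4.68, 4.37 and 5.30 CPM. Of the 1520 tested genes with such an excess in brain, 493 (32.4%) were called lower and 7 (0.461%) higher, with a median of -0.91. They made up 59.0% of all genes that fell. Of the other 15930 genes, 342 (2.15%) were called lower and 1011 (6.35%) higher, with a median of 0.04. With control 3 left out the neuron markers had a median of -1.93, and the 8 that had passed were at adjusted p of 0.0542 to 0.114; the count was 1 without day 4 library 2 or day 4 library 3, 2 without control 1, 3 without day 4 library 1, 4 without day 2 library 3 and 5 without day 2 library 1 or day 2 library 2. Brain tissue in the control pieces and a loss of nerve transcript from the bone cannot be told apart here.

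Genes outside this brain-rich set that fell most were picked after their values were seen. They included the heat shock genes Hspa1b and Hspa1a and the clock output gene Dbp, described next, and Tac1, the precursor of substance P in sensory nerves, at 9.48, 12.2 and 9.56 CPM in the controls and 1.92, 0.659 and 0.156 CPM at day 4 (-3.46 ± 0.60, adjusted p = 0.014; chromosome 6, 7554879 to 7565834). Meningeal genes were among them: Ptgds, the prostaglandin D synthase of the arachnoid, stood at 1281, 650.3 and 1056 CPM and 259.9, 361 and 143 CPM (-1.97 ± 0.49, adjusted p = 0.0462; chromosome 2, 25466709 to 25470046), and the organic anion transporter Slc22a6 fell by 2.05 on the log2 scale. All injured libraries lay below all controls in these genes, which was a condition of the choice. Of 14 periosteal and meningeal fibroblast genes, Ptgds, Gjb2 (-1.13 ± 0.24) and Slc47a1 (-0.72 ± 0.19) fell and Pdgfra rose (0.53 ± 0.11), beside 4.79% and 5.83% of all genes. The abundant fibroblast genes Dcn (0.27 ± 0.16) and Lum (0.15 ± 0.12) did not pass. The called members of that list had, without control 3, adjusted p of 0.0837 to 0.128, and its count was 0 without day 4 library 3, 1 without day 4 library 2 and 2 without control 1 or control 2 or day 2 library 3.

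Several clock genes fell. In the circadian clock, CLOCK and BMAL1 (gene Arntl) drive their own repressors (Per and Cry genes) and a set of output regulators through E-box elements, and the nuclear receptors Nr1d1 and Nr1d2 repress Arntl. Of 16 clock genes tested, 7 fell and 0 rose, with a median of -0.63. Nr1d2 stood at 109.9, 143 and 124 CPM in the controls and 51.6, 50.0 and 50.3 CPM at day 4 (-1.31 ± 0.11, adjusted p = 0.00338; chromosome 14, 18204054 to 18239127), and it passed without control 3 (-1.32, adjusted p = 0.038). Nr1d1 stood at 67.2, 158 and 106 CPM and 33.5, 32.6 and 34.4 CPM (-1.72 ± 0.27, adjusted p = 0.0128; chromosome 11, 98767932 to 98775333). The day 4 libraries lay close together in both genes, while the controls were spread more widely in Nr1d1, with control 2 the highest. Of the PAR bZIP output factors, Dbp stood at 16.9, 67.3 and 34.0 CPM and 5.45, 4.62 and 7.33 CPM (-2.76 ± 0.47, adjusted p = 0.0163; chromosome 7, 45705088 to 45710203). Tef stood at 127, 186 and 149 CPM and 76.8, 59.0 and 68.5 CPM (-1.18 ± 0.14, adjusted p = 0.00733; chromosome 15, 81802421 to 81826863). Hlf, the member of this family given above, stood at 42.2, 40.8 and 44.5 CPM and 20.7, 14.6 and 13.6 CPM. None of the 3 overlapped between the groups. The repressors Bhlhe41 (-0.77 ± 0.16) and Cry2 (-0.61 ± 0.14) fell as well, Per3 (-0.64 ± 0.20, 0.0693) and Cry1 (0.55 ± 0.17, 0.0621) did not pass, and the drivers Arntl (0.24 ± 0.17, 0.413) and Clock (-0.01 ± 0.10, 0.947) overlapped between the groups. The other 6 called genes had adjusted p up to 0.0859 without control 3, where the median was -0.65, and the count was 2 without day 4 library 3 and 4 without day 4 library 2. The labels give no hour of collection.

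Promoters of the called clock genes are shown because E-boxes are the element through which the clock drives its outputs. The windows are the 250 bases before each start site of RefSeq on GRCm38.p6. All 7 genes matched the table, with 8 windows. The E-box CACGTG, which reads alike on both strands, was found in 3 of the 8, against 6.02% of all 32851 windows. These were both windows of Tef and that of Bhlhe41, and Nr1d1, Nr1d2, Dbp, Hlf and Cry2 had none. The whole clock list, called or not, had it in 6 of 19 windows (31.6%). The D-box TTATGTAA, searched on both strands, was found in 0 of the 8 against 0.819%. A match is a description of letters and not a site shown to be bound. The E-box is in capitals, 5′ to 3′ on the gene's strand, for Tef (chr15:81811164-81811413, plus strand, starting at base -138 from the start site) and Bhlhe41 (chr6:145865421-145865670, minus strand, at base -153).
Tef: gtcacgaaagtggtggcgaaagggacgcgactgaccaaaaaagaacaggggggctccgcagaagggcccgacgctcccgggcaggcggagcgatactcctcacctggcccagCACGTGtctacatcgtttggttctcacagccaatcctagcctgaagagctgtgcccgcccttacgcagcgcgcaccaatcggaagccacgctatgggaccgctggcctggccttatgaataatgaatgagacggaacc
Bhlhe41: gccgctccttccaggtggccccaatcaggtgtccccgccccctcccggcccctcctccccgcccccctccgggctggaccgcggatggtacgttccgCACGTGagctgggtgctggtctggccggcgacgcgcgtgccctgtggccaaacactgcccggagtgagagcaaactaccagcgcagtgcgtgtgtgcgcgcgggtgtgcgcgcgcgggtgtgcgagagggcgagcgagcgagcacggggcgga

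Several heat shock genes fell. These chaperones refold damaged proteins and are switched on by heat shock factor HSF1. Of 14 tested, 6 fell and 0 rose, with a median of -0.67. Hsp90aa1, the inducible HSP90, stood at 341, 424 and 362 CPM in the controls and 223, 216 and 204 CPM at day 4 (-0.81 ± 0.09, adjusted p = 0.00702; chromosome 12, 110690605 to 110702728). Hsph1, an exchange factor for HSP70, stood at 223, 122 and 183 CPM and 69.5, 59.8 and 58.1 CPM (-1.49 ± 0.19, adjusted p = 0.0085; chromosome 5, 149614287 to 149636376). The groups of both genes were apart, and the day 4 libraries lay within a narrow range. The inducible HSP70 genes Hspa1b, at 63.9, 8.11 and 45.6 CPM and 3.85, 3.46 and 3.12 CPM (-3.49 ± 0.70, adjusted p = 0.0258; chromosome 17, 34956436 to 34959238), and Hspa1a, at 26.6, 3.04 and 18.0 CPM and 1.92, 1.73 and 1.48 CPM (-3.20 ± 0.69, adjusted p = 0.0287; chromosome 17, 34969190 to 34972156), had the largest changes. In both, control 2 lay much closer to the day 4 libraries than controls 1 and 3 did. This pair is nearly identical, so that reads could be split between the copies. The constitutive Hspa8 (-0.49 ± 0.09) and its partner Dnaja1 (-0.76 ± 0.16) fell as well, and Hspa5 of the endoplasmic reticulum, which answers to another stress, did not pass (0.18 ± 0.11, 0.329). Leaving out control 3, the median was -0.70 and the 6 genes were at adjusted p of 0.0542 to 0.0902, and the count was 2 without day 4 library 3 and 3 without day 4 library 2.

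Promoter windows of the called heat shock genes are shown for the inverted GAA repeats that HSF1 is known to bind. Of the 6 genes, 4 had an entry in the RefSeq table, with 7 windows; Hsp90aa1 and Hspa8 are named only. The repeats GAANNTTC and TTCNNGAA each read alike on both strands and may overlap each other. Either was found in 5 of the 7 windows, against 12.8% of all windows (6.69% for the first and 7.17% for the second). The whole heat shock list, called or not, had either in 8 of 16 windows (50%). The windows are not independent of each other: the 2 windows of Hsph1 overlap and hold the same repeat, and those of Hspa1a and Hspa1b were identical at 247 of 250 positions (98.8%). Repeats are in capitals, 5′ to 3′ on the gene's strand, all minus, for Hspa1a (chr17:34972157-34972406, starting at base -104), Hspa1b (chr17:34959239-34959488, at base -104) and Hsph1 (chr5:149636316-149636565, at base -54).
Hspa1a: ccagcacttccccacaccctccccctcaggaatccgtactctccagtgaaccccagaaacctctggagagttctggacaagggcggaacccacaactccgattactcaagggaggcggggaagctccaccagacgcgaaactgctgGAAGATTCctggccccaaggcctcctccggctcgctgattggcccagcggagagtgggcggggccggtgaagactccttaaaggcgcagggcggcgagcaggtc
Hspa1b: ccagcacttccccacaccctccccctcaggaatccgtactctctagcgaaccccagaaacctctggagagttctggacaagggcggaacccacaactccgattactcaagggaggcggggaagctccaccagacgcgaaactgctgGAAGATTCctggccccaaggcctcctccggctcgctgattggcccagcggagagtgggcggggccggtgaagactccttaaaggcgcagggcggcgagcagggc
Hsph1: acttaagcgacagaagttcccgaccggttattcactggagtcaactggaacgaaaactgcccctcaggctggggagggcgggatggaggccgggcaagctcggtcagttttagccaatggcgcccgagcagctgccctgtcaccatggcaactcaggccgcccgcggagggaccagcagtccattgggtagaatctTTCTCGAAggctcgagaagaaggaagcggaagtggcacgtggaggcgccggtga

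**Figure D5:**
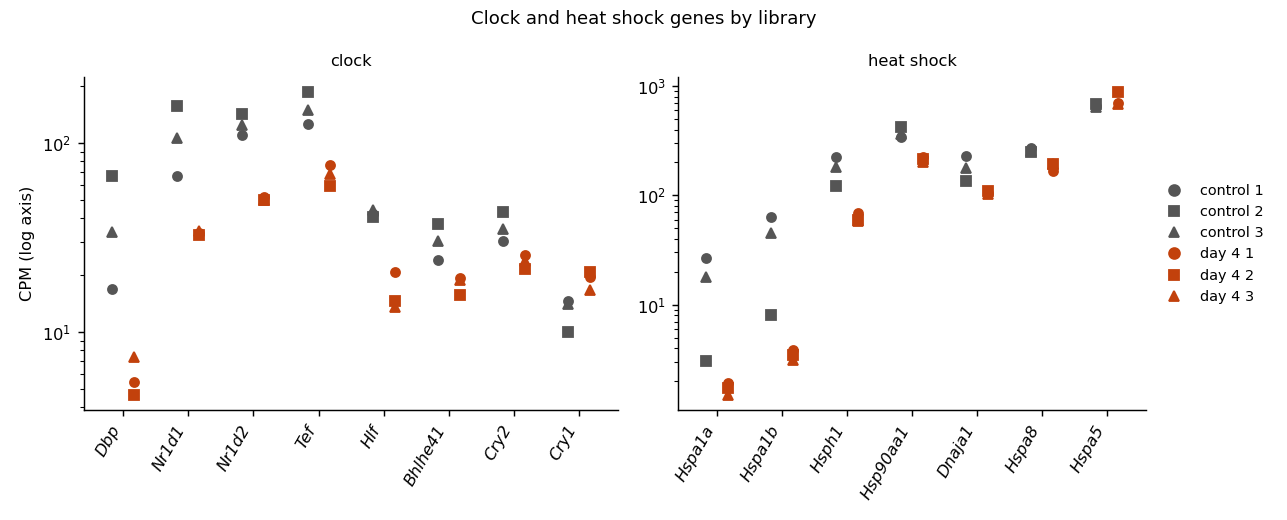
Level of clock genes and heat shock genes in each library, in CPM on log axes, with controls in grey and day 4 in orange. Nr1d2 lay at 109.9 to 143 CPM in the controls and 50.0 to 51.6 CPM at day 4, and Hspa1a had its lowest control, library 2, at 3.04 CPM against 1.48 to 1.92 CPM at day 4.

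Some genes of energy metabolism were lower, where 4.79% of all genes fell. Of 16 genes of glycolysis and the hypoxia response, 2 fell and 0 rose, with a median of -0.24. Aldoa, the muscle-type aldolase, stood at 672, 570 and 617 CPM in the controls and 431, 308 and 339.7 CPM at day 4 (-0.79 ± 0.14, adjusted p = 0.014), and the mitophagy receptor Bnip3 fell by 0.70 on the log2 scale. Of 20 respiratory chain subunits, 4 fell and 0 rose, with a median of -0.20: Cycs, which encodes cytochrome c (-0.77 ± 0.16), Uqcrc2 (-0.33 ± 0.08), Ndufa4 (-0.33 ± 0.09) and Sdhb (-0.23 ± 0.06). Ndufa4 stood at 126, 130.4 and 125 CPM and 100.3, 101 and 102 CPM, a small change with no overlap. Without control 3 no member of these 2 lists passed, with adjusted p of 0.0567 to 0.152, and the count of respiratory chain subunits was 0 without day 4 library 2 or day 4 library 3, 1 without control 1 or day 4 library 1 and 2 without day 2 library 3.

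The remaining lists are given by their counts, where 10.6% of all genes were called. Of 12 genes of the insulin-like growth factor axis, 4 rose and 1 fell, with a median of 0.32: the ligand Igf1 (0.37 ± 0.09), the scavenging receptor Igf2r (0.41 ± 0.10) and the binding proteins Igfbp4 (0.49 ± 0.08) and Igfbp7 (0.51 ± 0.11) rose, and the binding protein Igfbp6 fell (-0.81 ± 0.12, adjusted p = 0.00914). Igfbp6 stood at 78.9, 106 and 95.1 CPM in the controls and 61.0, 47.0 and 50.7 CPM at day 4, with no overlap. Of 17 genes of Toll-like receptor and inflammasome signalling, the adaptor Myd88 (0.46 ± 0.09), the protease Casp1 (0.67 ± 0.13) and the pore-forming Gsdmd (0.34 ± 0.09) rose and 0 fell. In 10 of the 17 every day 4 library lay above every control, against 17.1% of all genes. Of 16 genes of phagocyte lysosomes and lipid handling, 3 rose and 2 fell, among them the cathepsin Ctss (0.41 ± 0.11) and the lipid scavenger receptor Cd36, which stood at 95.1, 70.7 and 80.2 CPM and 47.5, 21.0 and 34.1 CPM (-1.26 ± 0.27, adjusted p = 0.0269). Of 11 eosinophil, basophil and mast cell genes, the eotaxin receptor Ccr3 (1.46 ± 0.30) and the mast cell protease Cpa3 (0.72 ± 0.16) rose. Of 10 mural cell genes, Rgs5 of pericytes (0.58 ± 0.10) and Myh11 of smooth muscle (0.56 ± 0.13) rose. Of 10 astrocyte genes 4 fell and Gja1, which bone cells also make, rose (0.61 ± 0.11); 1 of 8 oligodendrocyte genes fell, and 1 of 8 microglial genes rose. Of 14 genes of the unfolded protein and integrated stress responses, Ddit3 fell (-0.57 ± 0.12) and Pdia4 rose (0.41 ± 0.11). Cdkn1a was the only one of 14 glucocorticoid-responsive genes to pass (0.66 ± 0.15), and Steap3 the only one of 15 genes of haem synthesis and iron (0.46 ± 0.10). No gene passed among 14 immediate early genes (median -0.22), 14 genes of the oxidative stress response (-0.11), 7 adipocyte genes (-0.56), 7 skin epithelium genes (0.20), 10 skeletal muscle genes (-2.04) or 12 pineal genes (-1.65). At an unadjusted p under 0.05 in edgeR there were 3, 4, 1, 0, 1 and 0 genes in these 6 lists, DESeq2 called 2, 1, 1, 0, 0 and 0, and limma voom 0 in each. None of the calls in this paragraph passed without control 3, and the count of the growth factor axis was 1 without day 4 library 3, 2 without day 4 library 2 and 3 without control 2. That of lysosome and lipid genes was 0 without day 4 library 3, 2 without day 4 library 2 and 3 without day 2 library 1 or day 2 library 2 or day 2 library 3, and that of astrocyte genes 0 without day 4 library 3, 1 without day 4 library 2 and 2 without control 1 or day 4 library 1.

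The day 4 libraries were also tested directly against the day 2 libraries, in the same fit of 9 libraries, whose controls enter the estimate of the spread. Of 17450 genes, 3772 (21.6%) differed, 1842 (10.6%) higher and 1930 (11.1%) lower at day 4. All 16 glycolysis and hypoxia genes were lower than at day 2, with a median log2 difference of -1.42, and 16 of 25 cell cycle genes (-0.70), 11 of 21 cytokines and chemokines (-1.19), 10 of 18 metalloproteinases and inhibitors (-0.79) and 7 of 14 heat shock genes (-0.61) were lower. The metalloproteinase inhibitor Timp1 stood at 1038, 1039 and 1161 CPM at day 2 and 129.7, 258 and 196 CPM at day 4 (-2.47 ± 0.29, adjusted p = 0.00123), and Mmp13 at 12871, 11112 and 17334 CPM and 2156, 3319.5 and 2085 CPM (-2.45 ± 0.23, 0.00028). Each day 4 library was below each day 2 library in both genes; the controls had 87.3, 166 and 120.3 CPM for Timp1, which overlapped with day 4. Higher than at day 2 were 10 of 15 erythroid genes (1.73), 10 of 13 genes of B cell precursors (1.73), 10 of 14 genes of dendritic cells and MHC class II (1.29), 10 of 13 megakaryocyte genes (1.19), 8 of 13 granulocyte precursor genes (1.29) and 10 of 15 monocyte and macrophage genes (0.88). Of the latter, Cx3cr1 stood at 12.4 ± 1.47 CPM at day 2, 32.7 ± 3.14 CPM at day 4 and 29.5 ± 0.613 CPM in the controls (mean ± SD, n = 3 each; 1.40 ± 0.12, 0.000142), and day 4 was not called against control. All 13 granulocyte precursor genes were higher in every day 4 library than in every day 2 and control library. Over all genes, 17.1% lay above every control in every day 4 library, and the share above both groups was not counted. Camp stood at 115, 119 and 88.2 CPM at day 2. Sost stood at 0.678, 0.733 and 0.395 CPM at day 2 against 6.99, 8.41 and 8.11 CPM at day 4 (3.68 ± 0.32, 0.000169), and Tnfsf11 at 65.1, 62.1 and 80.7 CPM and 8.79, 15.2 and 7.64 CPM (-2.72 ± 0.32, 0.00116). For comparison, 6007 genes (34.4%) differed between day 2 and control; that comparison shares its controls with day 4 against control, and its day 2 libraries with the test given here. Without any 1 of the 9 libraries, 2260 to 4633 genes differed between the days, fewest without day 4 library 3.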

How the data were processed

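Messenger RNA was selected by poly(A) and sequenced as paired reads of 150 bases, per the labels' protocols. The deposited table holds raw read counts per gene name for 18 libraries. Reads were aligned to mm10 with HISAT2 2.1.0, per the submitters' processing notes. How reads were assigned to genes, with which annotation and whether by strand, is not stated there, so overlapping and antisense genes cannot be told apart. Of 26783 lines, 865 identical repeats were dropped, leaving 25918 names. Counts of the 9 skull libraries were fitted together in edgeR 4.0.16 (R 4.3.3; filterByExpr, TMM, robust quasi-likelihood test, two-sided, Benjamini-Hochberg adjustment over all genes tested), with a threshold of 0.05. Errors beside log2 changes are standard errors. Only the labelled groups were compared; the brain controls served to mark genes that exceed their skull level by 4-fold or more. Alternatives were DESeq2 1.42.0, limma 3.58.1, other scalings and filters, a replicate block, and leaving out each library. Gene positions are from GENCODE M21 on mm10. The fit was tested on simulated data.

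The leading genes are the 14 largest rises and 14 largest falls among called genes whose groups did not overlap and whose higher group averaged 5 CPM or more, leaving out unnamed loci, receptor segments, small RNA genes, pseudogenes and mitochondrial genes. In each list the 5 members with the smallest adjusted p, members against the list and defining members not called are named; others were chosen after their values were seen, and some genes are not reported here. The comparison and the 53 gene lists (706 tested genes) were chosen with earlier results of these data known.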

Additional observations from a re-analysis of the deposited data

Results flagged for a closer look

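The results here stand out because day 4 differed from day 2 in the direct test between these groups, so that the change against control was not the same at both times. This held for 3772 genes. Of the leading genes, 3 had fallen below their day 2 level by day 4: Saa3 by a log2 difference of -3.18 ± 0.59, Cldn2 by -1.96 ± 0.49 and Car12 by -1.75 ± 0.32. Saa3 stood at 97.2, 118 and 131 CPM at day 2 and 4.81, 23.3 and 10.4 CPM at day 4, and Car12 at 105, 130.3 and 68.9 CPM and 36.4, 37.1 and 16.9 CPM. Granule genes were higher at day 4, with Camp at 1.60 ± 0.27, Ngp at 1.36 ± 0.30 and Chil3 at 0.86 ± 0.25, as was Itgb2l at 1.38 ± 0.37. Phex was higher by 1.39 ± 0.27, with 58.4, 59.8 and 42.5 CPM at day 2, and Gal by 1.18 ± 0.31. The potassium channel Kcnt1, lower at day 4 than in the controls (-1.95 ± 0.39), was higher than at day 2 (1.44 ± 0.41). Groups of 3 libraries are too small for a check of single outlying libraries.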

How the results depend on the processing

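No gene called with all 9 libraries was called in the opposite direction under any setting run. The split of 1018 higher to 835 lower did turn round with RLE factors (875 to 880), DESeq2 (1355 to 1509), the 6 libraries alone (426 to 578) and without control 2 (1052 to 1485). List medians near 0 changed sign when a library other than control 3 was left out, among them erythroid (-0.07 to 0.47), B cell precursor (lowest -0.31), interferon-stimulated (-0.13 to 0.10), Wnt (-0.13 to 0.01), skin epithelium (-0.02 to 0.23) and oxidative stress genes (-0.16 to 0.03), and up to 3 erythroid genes were then lower. Of the 1853 genes called, other scalings (1755 and 1844), filters (1691 and 1851), limma voom (1345) and library sizes without globin and the 20 most abundant genes (1721) kept the count within 1.5 times. DESeq2 called 2864 (1509 lower), and the 6 libraries fitted alone 1004 (426 higher, 42.4% of calls against 54.9%). A table without brain-rich genes gave 1036 calls of 15930 genes (669 higher, 367 lower). In the main fit the same 15930 genes gave 1011 higher and 342 lower. At an adjusted p of 0.01, 148 genes remained, and 730 at 2-fold; for day 4 against day 2 the counts were 1521 and 944. Leaving out a library gave 10 to 2537 calls, 5 to 1052 higher and 5 to 1485 lower, 5551 to 8542 genes without overlap, 2260 to 4633 for day 4 against day 2, and 3 to 181 called members of the gene lists (166 in all, 105 with 6 libraries). Lists with 3 or fewer calls lost 1 or more under at least 1 omission. A lack of overlap is easier to reach with fewer control or day 4 libraries, by the way it is counted. Why the other counts moved was not tested. Control 3 lay between controls 1 and 2 in 64.3% of genes at a minimum of 1 CPM and 69.0% at 20 CPM, settings chosen after seeing the data.

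Whether replicate numbers pair the libraries is unknown from the labels. Deviations from the group means of same-numbered day 4 and control libraries correlated at 0.19, 0.161 and -0.0979. Those of differently numbered libraries correlated at -0.269 to 0.227. Deviations within a group of 3 depend on each other, so these values cannot decide whether the libraries are paired. With the replicate block, 765 genes passed (383 higher, 382 lower) and 79 list members. With 13142770 to 15445503 counts a library, genes under about 1 CPM rest on few reads, and 3 libraries a group limit every adjusted p.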
